A study of Mus musculus with 6 samples.

Results

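The heat shock proteins and chaperonin subunits are the machinery that folds new proteins and refolds damaged ones, and their genes were followed here in mouse leukemia cells given an inhibitor of the histone demethylase LSD1. Members were chosen by name: genes starting with Hspa, Hspb, Hspd, Hspe, Hsph or Hsp90, and Dnaja, Dnajb, Dnajc, Bag or Cct genes with a number, without the endoplasmic reticulum (ER) genes Hspa5, Hsp90b1 and Dnajb9. The rule found 78 of the 15035 genes in the table. The cells came from BALB/c bone marrow and carried retroviruses for mutant forms of CSF3R, the G-CSF receptor of the granulocyte lineage, and of CEBPA, a myeloid transcription factor. Both groups carried both mutant genes and were grown in medium with serum. Treatment lasted 48 h, with the solvent DMSO in one group of 3 libraries and with GSK-LSD1 at 4 nM in the other group of 3. The labels name neither the mutations nor the promoter of the retroviruses, and whether a group's 3 libraries are separate cultures is not stated. The p-values therefore measure the spread between these libraries, which may be technical.

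HSP70 proteins bind short exposed stretches of unfolded protein in a cycle driven by ATP. J proteins (the Dnaj genes) deliver the client and start ATP hydrolysis, and exchange factors such as the BAG and HSP110 proteins release ADP so that the client can leave. HSP90 acts later, on clients that include many kinases and transcription factors, while the ring-shaped chaperonins enclose a client: CCT in the cytosol, which folds actin and tubulin, and HSP60 with its lid HSP10 in mitochondria. Under proteotoxic stress the transcription factor HSF1 binds heat shock elements, which are repeats of the unit GAA and its reverse complement TTC with 2 bases between units, and raises many of these genes.

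Sequences before the gene starts were searched for that element, since it is the shared regulatory sequence of the family. RefSeq promoters of the GRCm38.p6 build were given for 64 of the 78 members, and the 250 bases before each start were searched on both strands. The 14 members without one were not searched, among them Hsp90ab1, Hspa8, Hsp90aa1, Hspa9 and Cct4. A pair of units, GAANNTTC or TTCNNGAA, was found in 15 of the 64 members (23.4%) and in 3932 of the 27025 genes of the promoter table (14.5%). A run of 3 units, GAANNTTCNNGAA or TTCNNGAANNTTC, was found in 3 members (4.69%), against 0.514% of all genes in the table. Among these 3, Hspd1 and Hspe1 share a single site, which is counted for both. A gene was counted if any of its starts had a match. Over single starts, 20.5% of the members' 83 and 12.8% of all 32851 held a pair. Cct2 and Cct5 each have a further start with no match. The match of Cct2 lies past its outer start and before its inner one, and that of Cct5 lies before its outer start. No match was found at any start searched for the stress-inducible genes Dnajb1 and Bag3 or the chaperonin subunits Cct3, Cct6a, Cct7 and Cct8. A pair is part of each run of 3 units, and pairs of both kinds can overlap. The stretches below are 30 bases in the direction of the gene, with the matched units in capitals. They are shown only for members with a match: those with a run of 3 units, some stress-inducible genes and 2 chaperonin subunits.
Hspe1: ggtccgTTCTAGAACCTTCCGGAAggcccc
Hspd1: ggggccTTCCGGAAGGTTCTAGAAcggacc
Dnajb6: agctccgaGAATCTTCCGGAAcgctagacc
Hsph1: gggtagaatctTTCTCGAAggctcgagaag
Cct5: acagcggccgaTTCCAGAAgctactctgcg
Cct2: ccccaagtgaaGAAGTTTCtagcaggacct
Hspb1: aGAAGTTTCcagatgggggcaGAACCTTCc
Hspa1a: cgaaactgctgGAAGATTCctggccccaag
Hspa1b: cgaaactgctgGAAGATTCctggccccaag
The site of Hspe1 and Hspd1 is a single one, read from either strand at chr1:55088059-55088076. It holds 4 units in a row over 18 bases and lies 89 to 72 bases before the start of Hspe1. Hspd1 runs the other way and has 2 RefSeq starts. The site is 144 to 127 bases before the inner one and lies past the outer one, whose own 250 bases hold no match. The stretch of Dnajb6 is at chr5:29735844-29735873 on the forward strand, with its 3 units 46 to 34 bases before one RefSeq start and 127 to 115 before the other. That of Hsph1 is at chr5:149636351-149636380 on the reverse strand, that of Cct5 at chr15:31601862-31601891 on the reverse strand and that of Cct2 at chr10:117063399-117063428 on the reverse strand. Hspb1 has a pair of sites in its stretch, at chr5:135887801-135887830 on the forward strand. The stretches of Hspa1a (chr17:34972242-34972271) and Hspa1b (chr17:34959324-34959353), both on the reverse strand, are identical. Of the 20 members with a promoter that fell in the comparison below, 5 held a pair, as did 2 of the 5 that rose and 5 of the 29 that were tested and did not pass. A match is a description of these letters, not a measured binding site.

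Values are read counts that the authors scaled by a factor per library. The libraries summed to between 9877460 and 10107885, and the smallest value above 0, which stands for 1 read if the values are scaled whole reads, was between 0.973 and 1.04. The cells were checked against marker genes. The neutrophil granule gene Mpo was at 7149 to 9135 and the mast cell and basophil gene Cpa3 at 13603 to 23636 in the 6 libraries, whereas the B cell genes Cd79a and Cd79b did not exceed 4.08. The T cell gene Cd3g reached 12.7. Levels differed widely within a list: Elane was at 47.6 to 119, Ngp at 14.6 to 57.5, Ltf at 0 to 6.94 and Kit at 19.4 to 43.5. These genes were named after their values were seen. Of 7 tested neutrophil granule markers 5 were lower and 2, Mpo and Mmp8, higher. The summed value of the list was 12520.0 to 13496 with DMSO and 26025 to 26910.0 with GSK-LSD1. Nearly all of that rise was Mmp8, named after its values were seen, which was at 2314 to 2436 with DMSO and 15237 to 15769.5 with GSK-LSD1. Of 6 mast cell and basophil markers 1 was lower and 2 higher, with 22710.0 to 24998 with DMSO and 30914 to 32248 with GSK-LSD1. Of 5 monocyte and macrophage markers, 4 were tested and all 4 were higher with GSK-LSD1, with a summed value of 348 to 389.6 with DMSO and 975 to 1072 with GSK-LSD1. Of 7 red cell markers 3 were measured and all 3 were lower, with 94.7 to 130.4 with DMSO and 5.10 to 10.4 with GSK-LSD1. Of 6 stromal and endothelial markers 2 were measured, Pecam1 and Col1a1, and both were higher. Their summed value was 3563 to 4040.5 with DMSO and 4376 to 4502 with GSK-LSD1. Nearly all of it was Pecam1, at 3531 to 4443 in the 6 libraries, whereas Col1a1 was at 31.3 to 59.0. The sum thus follows Pecam1 and does not by itself show that such cells were present. Fewer cells of a type and less RNA per cell cannot be told apart in bulk RNA, and the part of these shifts in the results below was not tested.

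After 48 h of GSK-LSD1 most tested genes of the CCT ring (6 of 7), of cytosolic HSP70 (3 of 4) and of the mitochondrial chaperones (3 of 4) fell, by 1.1-fold to 1.49-fold. Over all tested genes 20.5% fell, and 41.4% of those with a mean value of at least 2000, where all 7 tested CCT genes lie. The counts by role given below stand beside these shares. The members that rose, 6 in all, encode J proteins. They were 15.4% of the 39 tested J protein genes, below the 20.6% of all tested genes that rose. A value of 10 or more in 3 or more libraries was required of a gene before it was tested, and 68 members met this. The test was limma with Benjamini-Hochberg adjustment over all 11588 tested genes, and a change was called at an adjusted p under 0.05. Of the 68, 26 fell (38.2%), 6 rose (8.82%) and 36 did not pass. Over all tested genes 20.5% fell and 20.6% rose, or 41.1% in all. The groups did not overlap in 36 members, with GSK-LSD1 lower in 28 and higher in 8, and over all tested genes in 24.8% and 24.7%. The median log2 fold change was -0.11 over the tested members and -0.01 over all tested genes. Each fold change given compares log2(value + 1) with GSK-LSD1 to that with DMSO, so for low values it is smaller than the true ratio.

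Highly expressed genes fell more often in these libraries, and many chaperone genes are highly expressed, so the count was also read by level. Among members with a mean value of at least 2000, 11 of 17 fell (64.7%) and none rose, whereas 41.4% of the 1037 genes at that level fell and 17.1% rose. Of the members between 300 and 2000, 39.3% fell and 7.14% rose, while 25.7% of all genes there fell and 19.3% rose. Under 300, 17.4% of 23 tested members fell and as many rose, whereas 11.2% of all genes there fell and 22.6% rose. The share that fell was above that of all genes at each level, with 4 to 11 members behind each share. Under 300 it rested on 4 members, and the calls of Hspb6 and Dnajc25 among them were lost in 9 and 5 of 15 alternative fits. The differences between these shares were not tested. The J proteins differed from the rest in the counts. Of 39 J proteins 8 fell (20.5%) and 6 rose (15.4%), against 20.5% and 20.6% of all tested genes. Of the other 29 tested members 18 fell (62.1%) and none rose. The J proteins were also at lower levels: of the 17 members with a mean value of at least 2000, only Dnaja1, Dnaja2 and Dnajc8 are J proteins. No test was made of the difference in counts, and the J proteins and the rest were not matched by level.

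**Figure D1:**
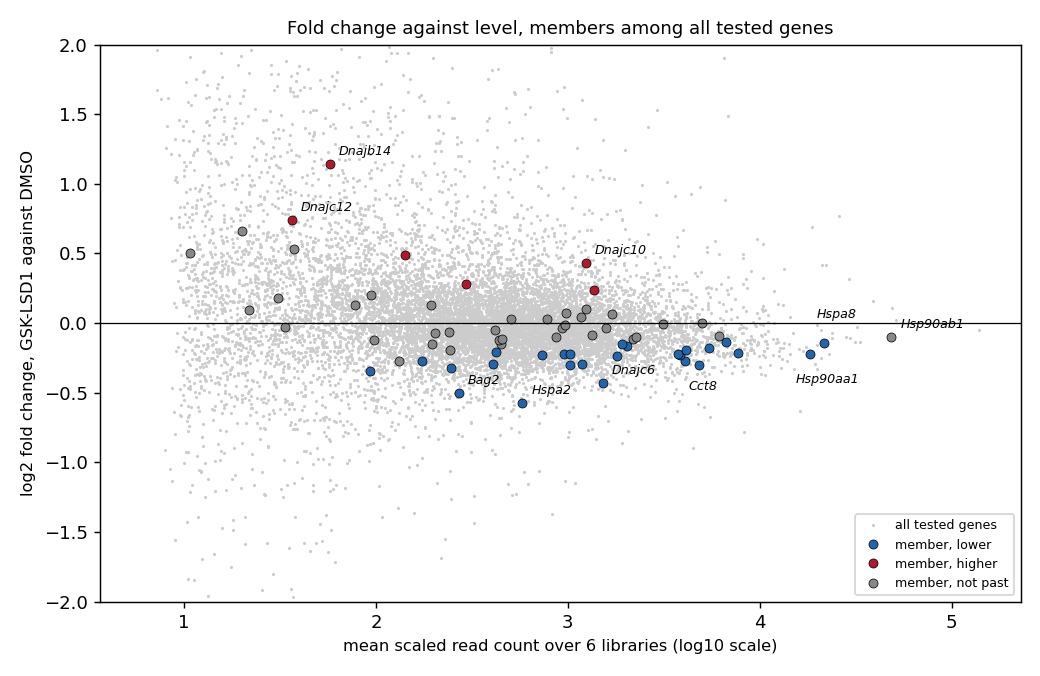
Log2 fold change (GSK-LSD1 against DMSO) against the mean scaled read count over 6 libraries on a log10 axis, with all tested genes in grey and the 68 tested members as larger points coloured by call. The members with the highest levels lie just below 0 and the largest rises are at low levels. A further 182 tested genes lie outside the plotted range of fold changes.

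DMSO replicate 3 stood above the other DMSO libraries in these genes. It was the highest of the 3 in 36 of the 68 tested members, and its median log2 difference from the other 2 was 0.07 over the members and 0.0024 over all tested genes. Without it 20 members fell (29.4%, against 19.8% of all genes), 7 rose (19.6% of all genes rose) and the median was -0.07. A fit without the mean-variance trend, in which every gene is drawn to 1 common variance, called 14 members lower (20.6%, against 14.3% of all genes) and 5 higher (against 17.3%). The summed value of the 78 members was 1.85%, 1.85% and 1.96% of all counts in the DMSO libraries and 1.73%, 1.77% and 1.73% in the GSK-LSD1 libraries. Hsp90ab1, Hspa8 and Hsp90aa1 made up 48.4% to 49.6% of the members' sum in each library.

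**Figure D2:**
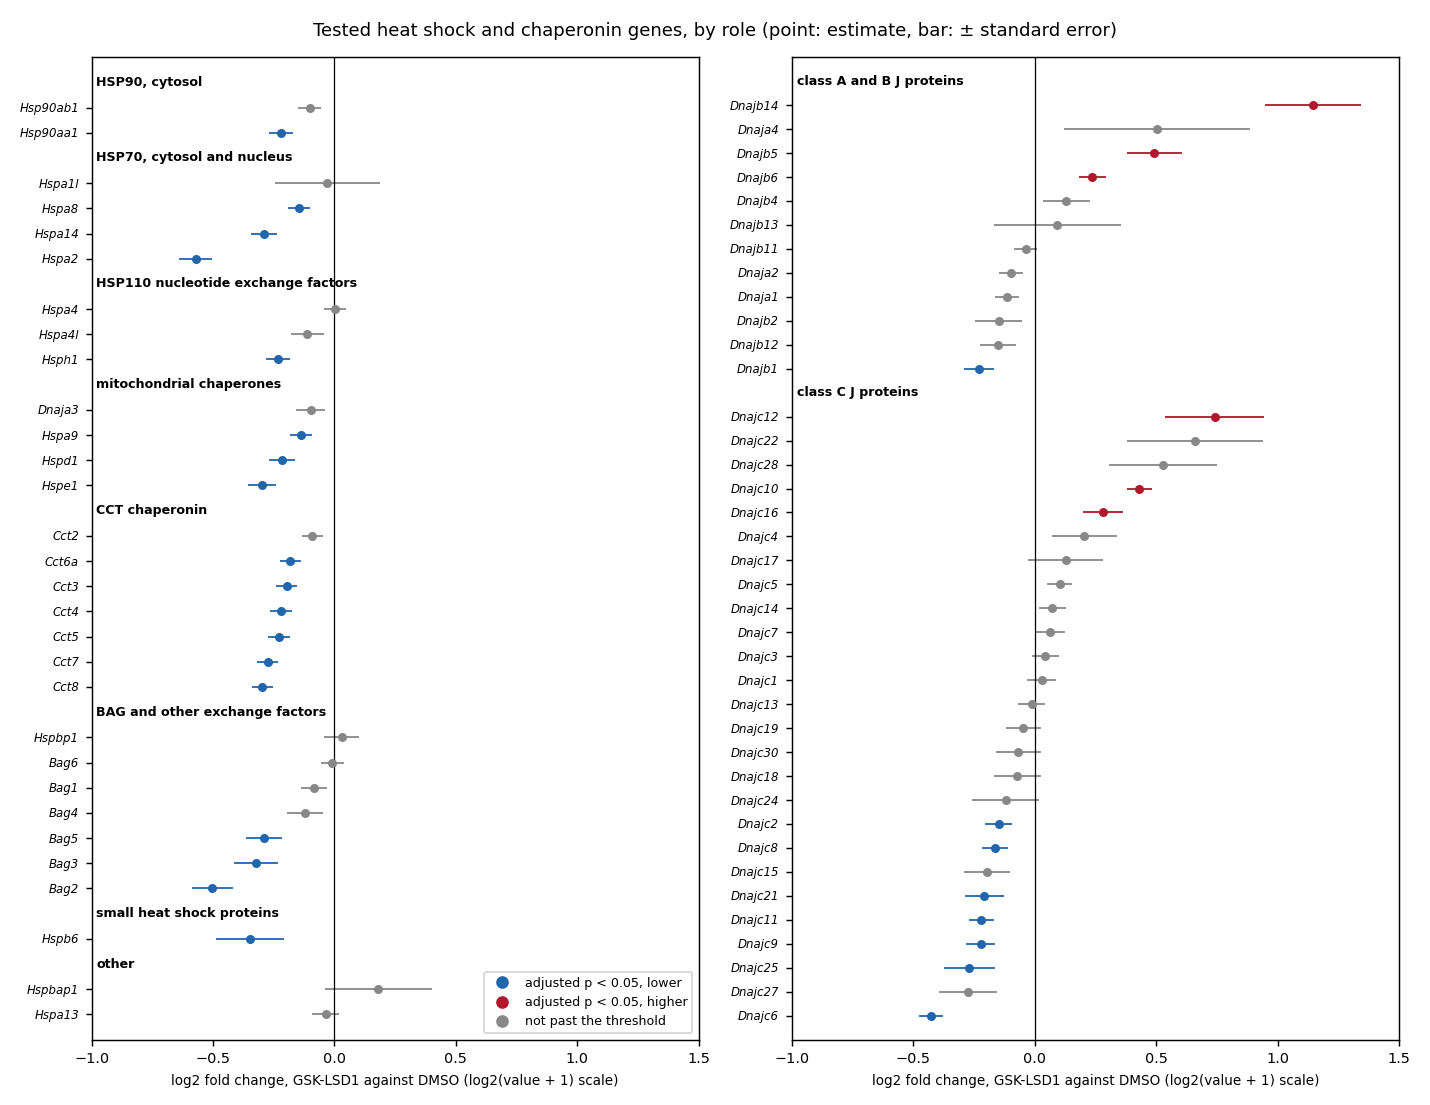
Log2 fold change of each tested member (point) with its standard error (bar), grouped by role, with blue for a fall, red for a rise and grey for genes that did not pass. All 7 tested CCT subunits lie left of 0, whereas the J proteins on the right spread to both sides.

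Of the 2 genes of cytosolic HSP90, 1 fell. Hsp90ab1, the most abundant member (chromosome 17, 45567775 to 45573271, GRCm38) and the constitutive form, had 48823, 50164 and 51653 with DMSO and 45857, 48494 and 46083 with GSK-LSD1. The groups did not overlap, but the log2 fold change of -0.10 (SE 0.0473) did not pass, with an adjusted p of 0.0843 by limma. It passed without DMSO replicate 1 (adjusted p = 0.0421). Hsp90aa1, the stress-inducible form (chromosome 12, 110690605 to 110702728), had 18895, 18729 and 21419 with DMSO and 16579.6, 17448 and 16584 with GSK-LSD1. DMSO replicate 3 was the high library here, and every GSK-LSD1 value was below every DMSO value. The log2 fold change was -0.22 (adjusted p = 0.000323 by limma), and the fit without the trend ended the call (adjusted p = 0.0549). Per kb of the longest principal transcript in GENCODE, the mean DMSO level was 19900 for Hsp90ab1, 9530 for the HSP70 gene Hspa8 and 6000 for Hsp90aa1, and the next member was Hspd1 at 3430.

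Of the 4 tested HSP70 genes of the cytosol and nucleus, 3 fell. Hspa8, the constitutive HSC70 that also strips clathrin from vesicles, had 22197, 21818 and 24429 with DMSO and 20129, 21063 and 20594 with GSK-LSD1, and fell 1.11-fold (adjusted p = 0.0111 by limma). Its groups did not overlap, but the call was lost without GSK-LSD1 replicate 1 or replicate 3 and in the fit without the trend, with adjusted p-values up to 0.119. Hspa2, an HSP70 best known from the testis (chromosome 12, 76404176 to 76406938), had the largest fall of any tested member. Its values were 637, 692 and 753 with DMSO and 461, 446 and 491 with GSK-LSD1, so that the lowest DMSO library was still well above the highest GSK-LSD1 library. It fell 1.49-fold (log2 fold change -0.57, SE 0.0674, adjusted p = 1.16e-08 by limma). Hspa14, which joins the J protein Dnajc2 in a complex on the ribosome, had 1253, 1327 and 1338 with DMSO and 1062, 1029 and 1110.5 with GSK-LSD1 and fell 1.22-fold. Hspa1l was 33.9 ± 5.16 with DMSO and 33.2 ± 5.64 with GSK-LSD1 (SD, n = 3) and did not pass. The classical heat-inducible genes Hspa1a and Hspa1b had values of 0 to 15.6 in both groups and were not tested. Their coding sequences are nearly identical, so reads may be split between them or left out of the counts. How reads that match both genes were counted is not given, so these values may be too low.

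The HSP110 genes are relatives of HSP70 that act as exchange factors, and 1 of the 3 fell. Hsph1, the heat-inducible one, had 2011, 1920.4 and 1891 with DMSO and 1702, 1674 and 1577 with GSK-LSD1 and fell 1.18-fold (adjusted p = 0.000183 by limma), with no overlap. Hspa4 had 4940.5, 4794 and 5271 with DMSO and 5076, 5053 and 4888 with GSK-LSD1. The groups overlapped fully, and its log2 fold change was 0.0020 (SE 0.0444). Hspa4l had 469, 461 and 484 with DMSO and 447, 441 and 419 with GSK-LSD1. Its groups did not overlap, yet it did not pass (log2 fold change -0.11, adjusted p = 0.188 by limma).

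Among the 4 genes listed as mitochondrial chaperones, a list that leaves out class C J proteins, 3 fell. Hspd1 and Hspe1 encode HSP60 and HSP10 and lie on opposite strands of chromosome 1 (55077835 to 55088243 and 55088132 to 55091307 in GENCODE), with their starts facing each other. The heat shock element site printed above lies before the start of Hspe1, and between the 2 RefSeq starts of Hspd1, inside the gene's GENCODE span. Hspd1 had 8141, 7497 and 9330.4 with DMSO and 7229, 7293 and 6880.0 with GSK-LSD1, with a wide spread among the DMSO libraries. Hspe1 had 1110.4, 1131 and 1135 with DMSO and 907, 854 and 988 with GSK-LSD1, with DMSO values close together. Hspd1 fell 1.16-fold and Hspe1 1.23-fold (adjusted p = 0.00103 and 4.76e-05 by limma), and neither gene's groups overlapped. Without the trend the call of Hspd1 was lost (adjusted p = 0.11). In GENCODE their exons overlap on opposite strands, and 5 and 6 pseudogenes carry the names of Hspd1 and Hspe1, so reads could be shared. Hspa9, the mitochondrial HSP70 mortalin, was 7034 ± 479.5 with DMSO and 6386 ± 30.2 with GSK-LSD1 (SD, n = 3) and fell 1.1-fold, a call lost without DMSO replicate 3, without either of GSK-LSD1 replicates 2 and 3, under quantile scaling and without the trend (adjusted p up to 0.144). Dnaja3, a J protein of that compartment, was 892 ± 48.7 with DMSO and 834 ± 68.1 with GSK-LSD1 (SD, n = 3) and did not pass (adjusted p = 0.199 by limma).

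The CCT ring is built from 8 different subunits, each present once in each of its rings, and 7 of them were among the tested members. Of these 6 fell and none rose, and in all 7 the highest GSK-LSD1 library was below the lowest DMSO library, and their mean values were all above 2000. Groups were apart in that direction in 24.8% of all tested genes and in 46.0% of those with a mean value of at least 2000. A fall was called in 20.5% of all tested genes and in 41.4% of those at that level. Cct8 fell most (1.23-fold), with 5243, 5195 and 5610.4 with DMSO and 4347, 4380.4 and 4322 with GSK-LSD1, and the GSK-LSD1 libraries were close together. Cct7 had 4482, 4637 and 4330.2 with DMSO and 3757, 3734 and 3623 with GSK-LSD1. Cct5, with the heat shock element pair printed above, had 3914, 4103 and 4398 with DMSO and 3546, 3601 and 3441 with GSK-LSD1. Cct4 had 4058, 3971 and 4090.3 with DMSO and 3711, 3352 and 3351 with GSK-LSD1, with GSK-LSD1 replicate 1 nearest to DMSO. These 4 subunits fell by 1.16-fold to 1.23-fold, with adjusted p-values of 8.33e-07 for Cct8, 3.59e-06 for Cct7, 0.000123 for Cct5 and 0.000183 for Cct4 by limma. Cct3 had 4339, 4310.4 and 4547 with DMSO and 3738, 3942 and 3838 with GSK-LSD1. Cct6a had 5494, 5734 and 6095 with DMSO and 5139.9, 5069.8 and 5051 with GSK-LSD1, and its adjusted p rose from 0.0011 to 0.0518 in the fit without the trend. Cct2 had 6157, 6156 and 6649 with DMSO and 5855, 5939 and 5991 with GSK-LSD1 and did not pass (log2 fold change -0.09, SE 0.0435, adjusted p = 0.0903 by limma), although its groups did not overlap.

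The eighth subunit is encoded by Tcp1, a gene outside the naming rule (chromosome 17, 12915701 to 12925067). It had 6843, 7069 and 7339 with DMSO and 6082, 6171 and 5860.0 with GSK-LSD1 and fell 1.17-fold (adjusted p = 4.61e-05 by limma). Per kb of transcript the DMSO levels of the 8 subunit genes ran from 1600 for Cct6a to 3230 for Cct2, with Cct4 at 1630, Cct7 at 1840, Cct3, Cct5 and Cct8 at 2230 each, and Tcp1 at 2900. These levels depend on the transcript chosen for the length. Exons of Cct8, Cct7, Cct6a and Tcp1 overlap another gene on the opposite strand, and no source used here says if reads were counted by strand. Cct6b, a testis form of the sixth subunit, was at 0 to 3.11 and was not tested.

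**Figure D3:**
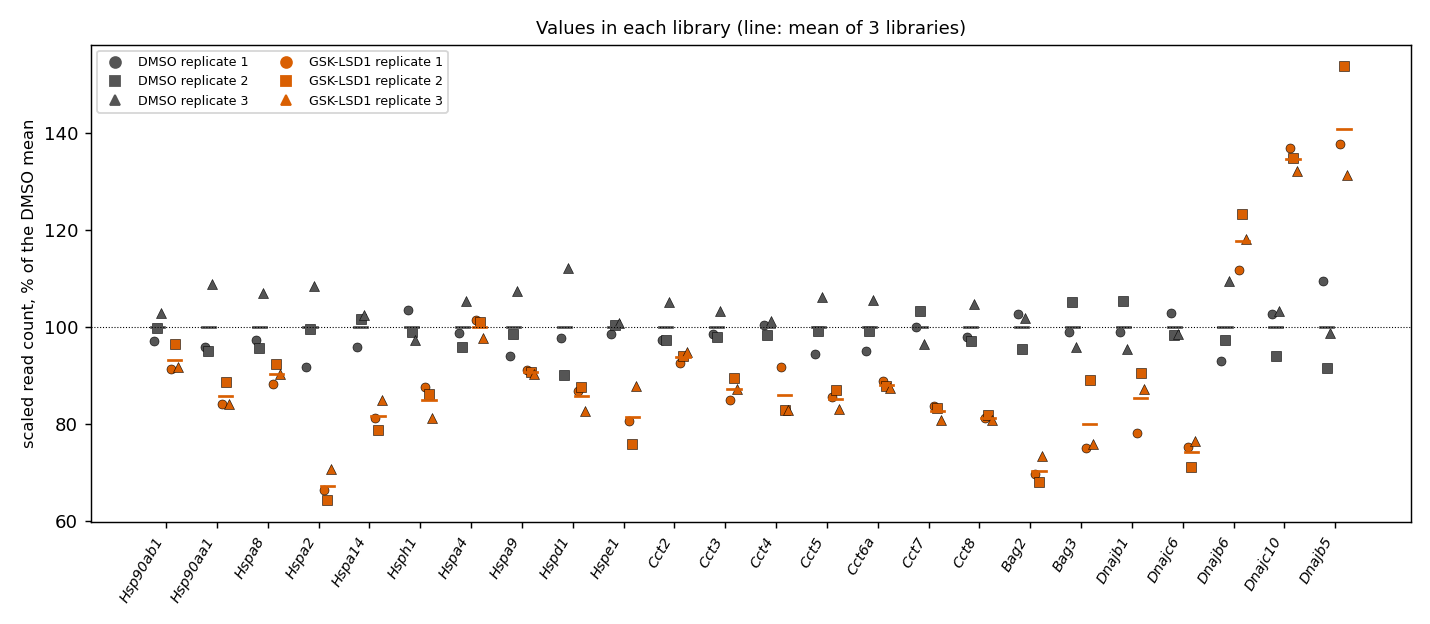
Scaled read counts of 24 members in each library, as percent of the gene's DMSO mean (dotted line at 100), with grey for DMSO, orange for GSK-LSD1, a symbol for each replicate and a line at each group mean. The CCT genes of the GSK-LSD1 libraries lie between 80.8% and 94.8% of the DMSO mean, DMSO replicate 3 (grey triangle) is often the highest grey point, and Dnajb6, Dnajc10 and Dnajb5 lie above 100 in every GSK-LSD1 library.

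The BAG proteins release ADP from HSP70 and tie it to other pathways. Of the 7 tested exchange factors of this group 3 fell (42.9%, against 20.5% of all tested genes) and none rose. Bag2, which restrains the ubiquitin ligase CHIP on HSP70, had 326, 303 and 324 with DMSO and 221, 216 and 234 with GSK-LSD1 and fell 1.42-fold (adjusted p = 7.34e-06 by limma). Bag3, the stress-inducible member that directs clients to autophagy, had 271, 287 and 262 with DMSO and 205, 243 and 207 with GSK-LSD1 and fell 1.25-fold (adjusted p = 0.00389 by limma). Bag5 was 447 ± 10.7 with DMSO and 367 ± 35.9 with GSK-LSD1 (SD, n = 3) and fell 1.22-fold. In these 3 genes every GSK-LSD1 library was below every DMSO library. Bag6, the most abundant of the group and a guide for membrane proteins, had 3176, 3246 and 2981 with DMSO and 3180.0, 3171 and 2992 with GSK-LSD1, and its log2 fold change was -0.0089 (SE 0.0461). Bag1, Bag4 and Hspbp1 did not pass, with log2 fold changes of -0.08, -0.12 and 0.03. A gene model on the opposite strand shares exon sequence with Bag2.

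Small heat shock proteins hold unfolded proteins in a state that HSP70 can take over, and their genes were hardly expressed in these cells. Hspb1, the widely induced HSP27, was at 0.977 to 1.99 in all 6 libraries, which is 1 to 2 reads if the smallest value is 1 read. Hspb8, Hspb9 and Hspb11, counted in this group by their symbols and not by a known function of each, were at 4.95 to 16.5, and none of these 4 was tested. Hspb6 was tested and had 101, 99.1 and 110.5 with DMSO and 85.7, 92.1 and 67.2 with GSK-LSD1, with a log2 fold change of -0.35 and an adjusted p of 0.044 by limma. Its exons overlap Lin37 and Proser3 on the other strand, and the call was lost in 9 of 15 alternatives, 5 of which left out a library (adjusted p up to 0.271).

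J proteins of classes A and B, the general partners of HSP70, gave counts near or below those of all tested genes: of 12 tested, 3 rose (25%, against 20.6%) and 1 fell (8.33%, against 20.5%). Dnajb1, the main heat-inducible partner in the cytosol, was 794 ± 40.4 with DMSO and 678 ± 50.3 with GSK-LSD1 (SD, n = 3) and fell 1.17-fold (adjusted p = 0.00318 by limma), a call lost without GSK-LSD1 replicate 1 and in the fit without the trend (adjusted p up to 0.0605). Dnajb6, which keeps proteins with long glutamine tracts from aggregating, had 1174, 1229.7 and 1382 with DMSO and 1409.9, 1556 and 1490.1 with GSK-LSD1 and rose 1.18-fold (adjusted p = 0.000793 by limma, and 0.0628 without the trend). It carries a run of 3 heat shock units, as Hspd1 and Hspe1 do, and changed in the other direction. A link between these sites and the changes was not tested. Dnajb5 had 129, 108 and 116 with DMSO and 162, 181 and 155 with GSK-LSD1 and rose 1.41-fold. Dnajb14, a J protein of the ER membrane, had 37.1, 47.6 and 23.9 with DMSO and 90.8, 72.5 and 73.0 with GSK-LSD1, low in all libraries and apart between groups, and its rise of 2.21-fold (adjusted p = 1.19e-05 by limma) was the largest of any tested member. Gene models on the opposite strand share exon sequence with Dnajb6 and Dnajb14. Dnaja2, the most abundant of these genes, had 2168, 2397 and 2442 with DMSO and 2199, 2116 and 2223 with GSK-LSD1 and did not pass (adjusted p = 0.107 by limma, and 0.0137 without DMSO replicate 1). Dnaja1, its close relative, was 2263 ± 157 with DMSO and 2086 ± 22.2 with GSK-LSD1 (SD, n = 3) and did not pass either (adjusted p = 0.0594 by limma), but it passed without DMSO replicate 1 or DMSO replicate 2. Dnajb3 and Dnajb7 were at 0 to 4.08 and were not tested.

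Class C holds J proteins with their own clients or places in the cell, and 7 of 26 tested genes fell (26.9%, against 20.5% of all genes) while 3 rose (11.5%, against 20.6%). Dnajc6, auxilin, brings HSC70 to clathrin-coated vesicles, and it had the clearest fall of the class, with 1795, 1715 and 1720.1 with DMSO and 1313, 1240.0 and 1336 with GSK-LSD1, or 1.34-fold (log2 fold change -0.43, SE 0.0497, adjusted p = 8.35e-09 by limma). Dnajc9, a chaperone of histones, was 1029 ± 75.9 with DMSO and 881 ± 50.8 with GSK-LSD1 (SD, n = 3), and Dnajc11, a protein of mitochondrial membranes, was 1101 ± 16.6 with DMSO and 945 ± 16.6 with GSK-LSD1 (SD, n = 3). They fell 1.17-fold and 1.16-fold, and their groups did not overlap. The call of Dnajc9 was lost without the trend (adjusted p = 0.0697 by limma). Dnajc2, the ribosome partner of Hspa14, was 2019 ± 240.5 with DMSO and 1813 ± 33.4 with GSK-LSD1 (SD, n = 3), and DMSO replicate 3 was its highest library. Dnajc8, a protein of the spliceosome and the most abundant of the class, had 1968, 2196 and 2259.7 with DMSO and 1779, 2018 and 1929 with GSK-LSD1. Dnajc2, Dnajc8, Dnajc21 (a factor of ribosome assembly) and Dnajc25 fell 1.11-fold to 1.21-fold, and each of these calls was lost without DMSO replicate 3 and without at least 1 other library, with adjusted p-values up to 0.398. The groups of Dnajc8 and Dnajc21 overlapped, which among the 32 called members was so in these 2 alone.

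The class C genes that rose were Dnajc10, Dnajc16 and Dnajc12. Dnajc10 encodes ERdj5, a reductase that opens disulfide bonds in the ER, and it had 1088, 996 and 1095 with DMSO and 1451, 1429 and 1401 with GSK-LSD1, with the highest DMSO library well below the lowest GSK-LSD1 library. It rose 1.35-fold (log2 fold change 0.43, SE 0.0524, adjusted p = 2.19e-08 by limma). Dnajc16, also an ER membrane protein, had 254, 262 and 286 with DMSO and 321, 338 and 313 with GSK-LSD1 and rose 1.21-fold. Dnajc12, a partner of the aromatic amino acid hydroxylases, was 27.0 ± 2.32 with DMSO and 45.8 ± 3.38 with GSK-LSD1 (SD, n = 3) and rose 1.67-fold from a low level. Other ER members did not pass: the log2 fold change was -0.04 for Dnajb11, 0.04 for Dnajc3, 0.03 for Dnajc1, -0.15 for Dnajb12 and -0.04 for the HSP70 relative Hspa13, whose values were 975, 909 and 959 with DMSO and 921, 951 and 898 with GSK-LSD1. Of the 3 ER genes that the naming rule leaves out, Hspa5, which encodes BiP, fell 1.09-fold (adjusted p = 0.0228 by limma), while Hsp90b1 and Dnajb9 did not pass (log2 fold changes -0.11 and 0.19).

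The partners of these chaperones were taken from a list of 61 genes outside the rule, of which 60 were in the table and 59 were tested. Of the 59, 24 fell (40.7%), 2 rose (3.39%) and 33 did not pass, with a median log2 fold change of -0.11. Over all tested genes 20.5% fell and 20.6% rose. At a mean value of at least 2000, 57.9% of 19 partner genes fell, against 41.4% of all genes, and from 300 to 2000 it was 40.6% of 32, against 25.7%. Of the 8 tested partner genes under 300, none passed. The co-chaperones of HSP90 and HSP70 made up most of the falls, with 13 of 22 lower and none higher. They included the adaptor Stip1, which passes clients from HSP70 to HSP90 (4552 ± 296 against 3767 ± 90.5), the kinase loader Cdc37 (3543 ± 59.3 against 2944 ± 90.0), the ATPase activator Ahsa1 (2442 ± 131 against 2055 ± 17.6) and the immunophilins Fkbp4 and Fkbp5. These 5 were named after their values were seen. The 9 co-chaperones that did not pass included St13, Sgta, Chordc1 and Cdc37l1, with log2 fold changes of -0.08, -0.04, 0.03 and 0.14. They too were named after their values were seen. Cacybp and Ppid, the cyclophilin 40 gene, had the largest falls of the list. Cacybp had 1690.5, 1805 and 1860.5 with DMSO and 1324, 1472 and 1420.0 with GSK-LSD1. Ppid had 2468, 2613 and 2877 with DMSO and 2056, 2130.2 and 2074 with GSK-LSD1, falls of 1.27-fold for each with no overlap. The prefoldin subunits, which hand actin and tubulin to CCT, mostly did not pass, and Pfdn6 fell 1.18-fold. Pdcl, a phosducin-like gene whose product works with CCT on G protein subunits, moved the other way: it had 594, 543 and 609 with DMSO and 972, 879.8 and 941 with GSK-LSD1 and rose 1.6-fold (adjusted p = 2.15e-11 by limma).

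Of 8 mitochondrial partner genes 3 fell (37.5%, against 20.5% of all tested genes) and none rose. Those that fell were the protease genes Lonp1 and Clpp and the exchange factor gene Grpel1, with log2 fold changes of -0.30, -0.24 and -0.21. Of 14 tested ER chaperone genes 5 fell (35.7%, against 20.5%) and 1 rose (7.14%, against 20.6%). Most of the 14 have a mean value of at least 2000, where 41.4% of all tested genes fell and 17.1% rose. Creld2 had 397, 524 and 472 with DMSO and 354, 378 and 364 with GSK-LSD1. It fell 1.26-fold, a call lost without the trend (adjusted p = 0.0535 by limma). Manf fell 1.24-fold, and the oxidoreductase gene Pdia4, with 2577, 2527 and 2714 with DMSO and 2886, 2829.9 and 2813 with GSK-LSD1, rose 1.09-fold, a call lost without any 1 of 5 libraries and without the trend (adjusted p up to 0.106). Hsf1 itself had 704, 755 and 725 with DMSO and 658, 603 and 680.3 with GSK-LSD1, with no overlap. It fell 1.13-fold (adjusted p = 0.0247 by limma), and the call was lost on leaving out replicate 2 of either group and without the trend (adjusted p up to 0.175). Hsf2 and Hsbp1, which encodes a protein that binds HSF1, did not pass (log2 fold changes 0.07 and -0.05). Pfdn6, Manf and the genes given here by a log2 fold change alone were also named after their values were seen.

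**Figure D4:**
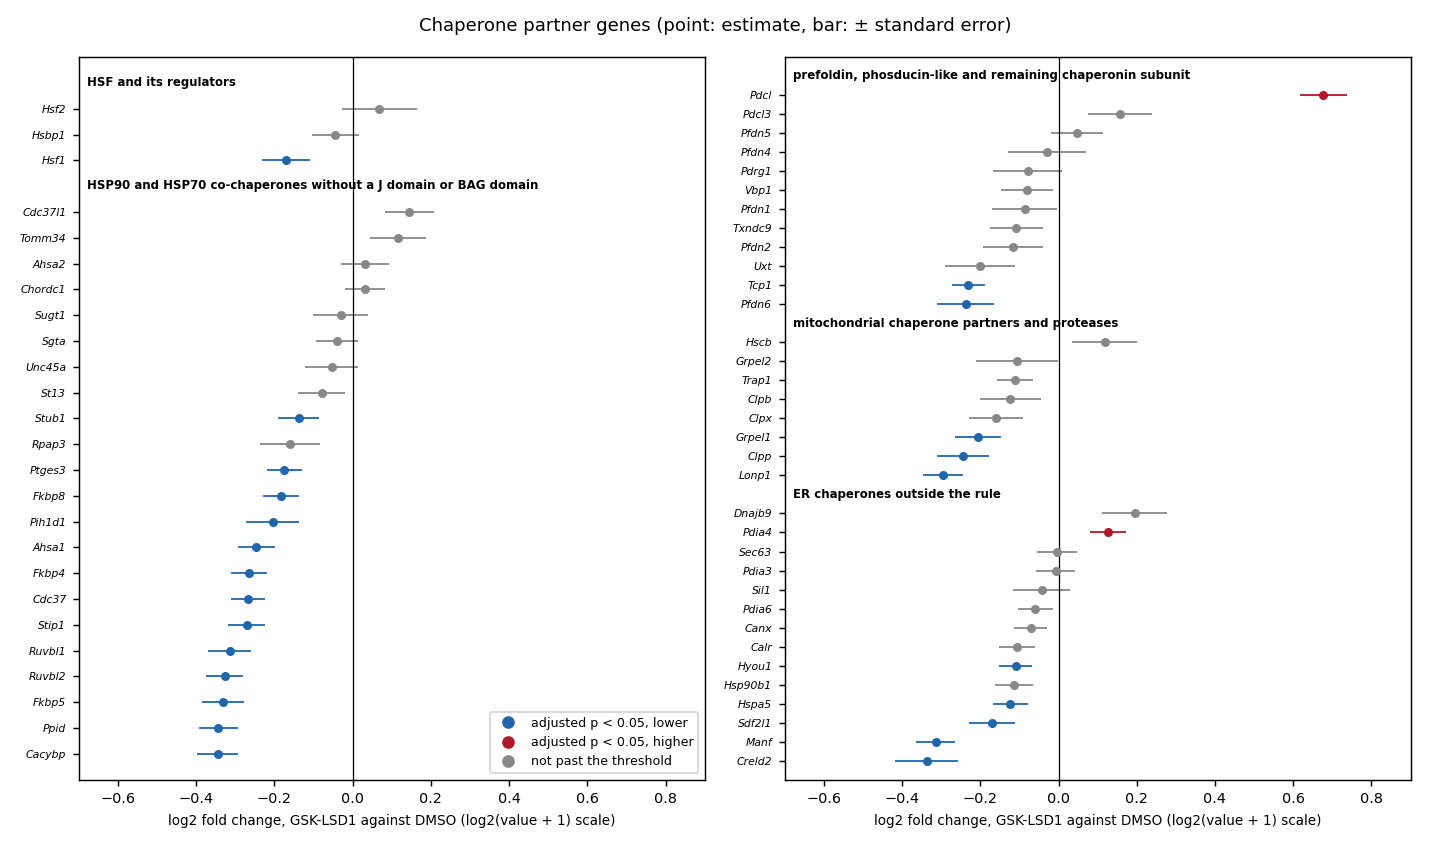
Log2 fold change of 59 chaperone partner genes outside the naming rule (point) with the standard error (bar), grouped by list, with blue for a fall, red for a rise and grey for genes that did not pass. Most HSP90 and HSP70 co-chaperones lie left of 0, and Pdcl, at the top right, is the largest rise.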

How the data were processed

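RNA-seq was done on total RNA of 3 DMSO and 3 GSK-LSD1 libraries. The deposited table holds 1 value per gene symbol and library, a scaled read count (a signal) that the authors made by dividing counts by a factor per library. The submitters' processing notes list STAR, DESeq2, mm10 and GRCm38, with no versions. What counted the reads, on which annotation, with which strand setting and which filters, is not given in the sources. Of the rows, 22 have symbols that a spreadsheet turned into dates.

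Values were tested as log2(value + 1) in limma 3.58.1 (R 4.3.3) with a mean-variance trend and Benjamini-Hochberg adjustment over 11588 genes with a value of at least 10 in at least 3 libraries, and no count model was used. The threshold was an adjusted p of 0.05. The fit was tested on simulated data. Positions, overlaps and transcript lengths came from GENCODE vM21 (GRCm38) and promoters from RefSeq (GRCm38.p6). Figures used matplotlib 3.10.9 and pandas 2.3.3. Protein sequences were not analysed here.

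The members and lists were chosen with earlier results of these data known. Values by library were given for up to 8 members with the largest fall and up to 8 with the largest rise that passed at a mean value of 50 or more (5 rose), for each tested CCT, HSP90 and HSP110 gene, and for the most abundant member of each role. Among partner genes they were given for Hsf1, Tcp1 and up to 3 with the largest change in each direction. Exact tests on 3 against 3 libraries cannot go below a two-sided p of 0.1 and were not used. Alternatives were other pseudocounts, filters and scalings, no trend, library weights, a replicate block and leaving out each library.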

Additional observations from a re-analysis of the deposited data

How the results depend on the processing

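Over 15 alternatives 5 to 8 members rose and 14 to 28 fell, and the median log2 fold change of the tested members was -0.13 to -0.07. The 14 came from the fit without a mean-variance trend, which gave a count over 1.5 times smaller than the 26 reported. Leaving out each library gave 20 to 28 members lower, 6 to 7 higher, a median of -0.13 to -0.07, 19 to 27 partner genes lower and 1 to 3 partner genes higher. Of the 32 called members, 19 passed in every alternative that tested them and 24 passed on leaving out each library in turn, and no called member changed sign. With a replicate block 25 members fell, 6 rose, the median was -0.11 and 24 partner genes fell, and Hspb6 lost its call. The replicate numbers did not pair the libraries: the correlations of deviations for same-numbered libraries were -0.02, -0.03 and -0.0077. With 3 libraries a group and members near the threshold can pass or miss it with 1 library. Values under about 10, as of Hspa1a and Hspb1, are a few reads and allow no comparison.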
